A study of Mus musculus with 6 samples.

Results

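The kinesin superfamily was examined as 42 protein-coding genes, namely all RefSeq genes whose symbols begin with Kif and a number or with Kifc. Of these, 39 had at least 1 probe on the arrays and 33 were tested, out of 20018 named genes with a probe and 13586 named genes tested. Liver was taken from male C57BL/6J mice 3 days after surgery. In the PVBL group (n = 3) the left branch of the portal vein had been ligated and the right lobe was taken as the regenerating part. The sham group (n = 3) had a sham operation, and its right lobe was collected at the same time. Each sample was hybridised to its own single-colour Agilent array. Whether each sample is from its own animal is not in the labels, and the p-values therefore speak for the scatter among these 6 samples, part of which may be technical.

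Kinesins are motor proteins that use ATP to act on microtubules. One branch of the family builds and positions the mitotic spindle, moves chromosomes and completes cytokinesis, and its genes are switched on in cells that divide. Another branch carries vesicles, organelles, receptors and ciliary components along the microtubules of cells that are not dividing, and hepatocytes use it to sort cargo between their sinusoidal and bile canalicular surfaces. A further set works in cilia and centrioles or tunes microtubule growth. The 42 genes were therefore read as 13 mitotic kinesins, 15 transport kinesins and 14 others.

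Values are given as scaled signals, which are the scanner's processed signal as a percentage of the 75th percentile of all probes on the same array. A probe's level depends on its own sequence, so levels are compared between groups and not between genes. Differences are log2 differences, PVBL minus sham, with limma's moderated standard error (SE) and an adjusted p over all 13586 genes (Benjamini-Hochberg). A gene was called when the adjusted p was under 0.05. By this rule 32.9% of all tested genes were called, 15.1% higher and 17.8% lower in PVBL, and the 2 groups did not overlap for 51.4%. The median difference over all tested genes was -0.10. Between 48.0% and 53.6% of probes were well above background on an array, and the 75th percentile lay at 203 to 407 units. The array positions put each group in a row of its own on a shared slide, so an effect of the row and one of the ligation cannot be told apart. Scaling on 8 spike-in probes moved the median over all genes to 0.33 and the calls to 1612 higher and 186 lower.

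The mitotic kinesins rose as a block in regenerating liver. All 11 that were measured were called higher, against 15.1% of all tested genes. In none did a sham array reach a PVBL array, and the groups did not overlap for 51.4% of all tested genes. For 8 of the 11 no sham array was above background. These 8 passed the filter through PVBL alone, so their separation adds little support of its own. The median log2 difference of the 11 was 4.57, against -0.10 over all tested genes. It was 3.69 with those 8 genes set to their lower bound. Of the 13 tested transport kinesins, 2 were called higher, 4 lower and 7 were not called, against 15.1% higher and 17.8% lower over all tested genes, so the 2 that rose are near the background share. Their median was -0.32, or 0.11 with spike-in scaling, where 1 was called higher and 2 lower. With array weights 2 were called higher and 8 lower. Of the 9 others that were tested, 1 was called higher and none lower, with a median of -0.22. They include Kif2a, which also acts at spindle poles and was not called (-0.09), so the mitotic count depends on how the classes were drawn. The classes were drawn with earlier results of these data known. In whole liver RNA, more dividing cells and more RNA per cell cannot be told apart.

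**Figure D1:**
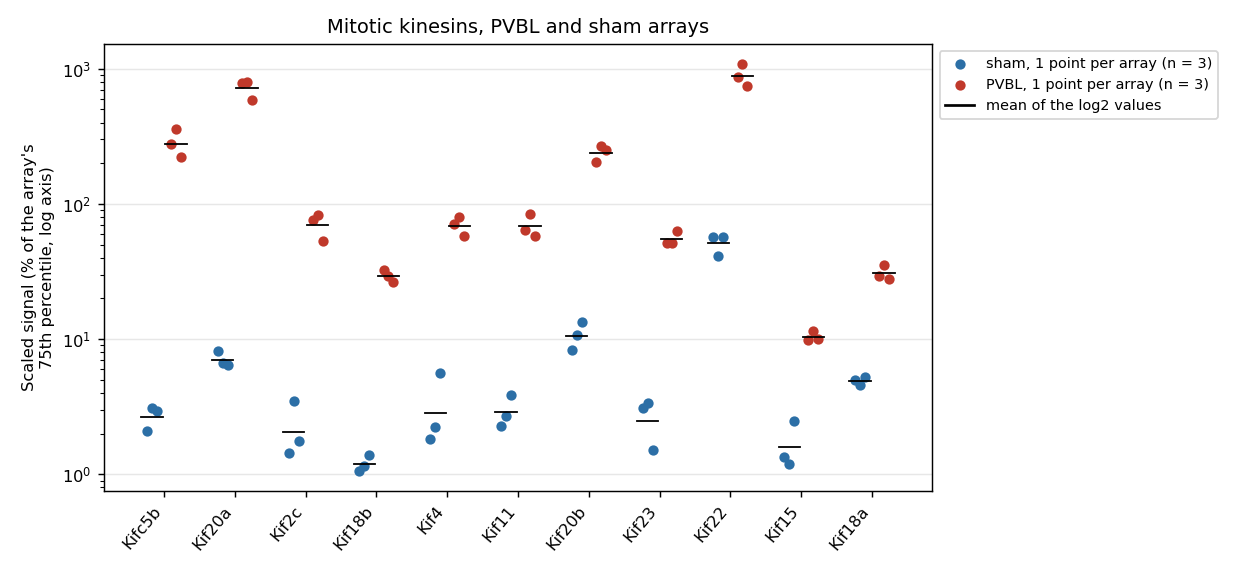
Scaled signal (percent of the array's 75th percentile, log axis) of the 11 measured mitotic kinesins, with 1 point per array and a bar at the mean of the log2 values. Every PVBL point lies above every sham point of the same gene, from Kif15 (9.82% to 11.5% against 1.196% to 2.46%) to Kif22 (748% to 1078% against 41.0% to 57.3%).

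The motors of the spindle were first among them. Kif11 (Eg5), which slides antiparallel microtubules to push the spindle poles apart, had scaled signals of 64.4%, 84.3% and 58.1% on PVBL arrays 1 to 3. On sham arrays 1 to 3 it had 2.27%, 2.70% and 3.87%, none of them above background. The log2 difference was 4.57 ± 0.23 (SE, n = 3 per group, limma adjusted p = 2.75e-05), and the fold was at least 12.7 when the PVBL mean was set against the dimmest signal rated well above background on each sham array, or the probe's own if higher. All bounds given here were made in this way. Kif15, which cooperates with Kif11 in holding the spindle bipolar, had signals of 9.82%, 11.5% and 10.1% against 1.35%, 1.196% and 2.46%. The fold was at least 1.95 (log2 difference 2.72 ± 0.27, adjusted p = 0.000657).

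Kifc5b encodes a minus-end-directed motor that crosslinks and focuses spindle microtubules. It showed one of the widest separations of the family, at 278%, 356% and 221% against 2.10%, 3.09% and 2.95%. The fold was at least 52.2 (log2 difference 6.71 ± 0.23, adjusted p = 5.29e-06). A second Kifc5b probe, for the same transcript, was well above background on only 2 of the 3 PVBL arrays (12.3%, 9.25% and 8.52% against 1.27%, 1.34% and 2.11%) and was not tested. Kifc1, a near-identical copy on the same chromosome, had no probe of its own by accession, and the copies cannot be told apart here.

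Kif2c (MCAK) removes tubulin from microtubule ends at centromeres and so frees wrongly attached chromosomes. Its signals were 76.3%, 82.2% and 53.4% against 1.44%, 3.46% and 1.77%, at least 13.0-fold higher (log2 difference 5.07 ± 0.34, adjusted p = 9.99e-05). Its other probe showed the same separation, at 50.1%, 57.2% and 41.7% against 1.53%, 1.31% and 4.48%, a log2 difference of 4.56. The 2 differences could not be told apart (0.50 ± 0.66, 95% interval -1.10 to 2.11). Kif18a, which damps the oscillation of chromosomes at the metaphase plate, had 29.2%, 35.5% and 27.8% against 4.96%, 4.61% and 5.21%. This was at least 5.71-fold higher (log2 difference 2.64 ± 0.14, adjusted p = 2.99e-05). Kif18b, a related motor that limits astral microtubules, had 32.2%, 29.5% and 26.3% against 1.06%, 1.15% and 1.40%, at least 5.46-fold higher (log2 difference 4.62 ± 0.15, adjusted p = 4.77e-06).

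The chromokinesins bind chromosome arms. Kif22 (Kid), which pushes arms away from the poles, was well above background on all 6 arrays, with 862%, 1078% and 748% against 57.3%, 41.0% and 57.3%. It was 17.3-fold higher (log2 difference 4.11 ± 0.20, adjusted p = 2.09e-05). Kif4, which acts with Prc1 to set the length of the anaphase midzone, had 70.6%, 80.5% and 57.9% against 1.84%, 2.23% and 5.65%. It was at least 12.9-fold higher (log2 difference 4.60 ± 0.40, adjusted p = 0.000372). A separate probe for the pseudogene Kif4-ps stayed near background in both groups, at 4.46%, 2.31% and 4.35% against 6.76%, 3.59% and 7.69%.

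All 3 measured motors of late mitosis were called higher, as were 15.1% of all tested genes. Kif20a (MKLP2), which carries the chromosomal passenger complex to the midzone, had 780%, 799% and 588% against 8.20%, 6.64% and 6.42%. Its log2 difference was 6.67 ± 0.17 (adjusted p = 2.16e-06), a fitted fold of 102, with 1 of the 3 sham arrays above background. Kif20b, a midbody motor needed for abscission, was measured on all 6 arrays, with 204%, 267% and 251% against 8.30%, 10.6% and 13.3%, and was 22.6-fold higher (log2 difference 4.50 ± 0.20, adjusted p = 1.55e-05). Kif23 (MKLP1), the motor subunit of centralspindlin, had 51.6%, 51.1% and 63.3% against 3.07%, 3.35% and 1.51%, at least 10.3-fold higher (log2 difference 4.46 ± 0.30, adjusted p = 0.00011). Kif14, which brings citron kinase to the midbody, had no probe matched by accession.

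The rise held for all 11 genes without any 1 array, with log2 differences from 2.51 to 6.88. For the 8 genes not above background on any sham array, these differences are taken from sham signals at background. Those genes passed the filter through the PVBL arrays alone. Their bounds were not made again without 1 array, and the bound for Kif15 is only 0.96. With normexp background correction, which adds 50 units to every signal and so makes folds of dim genes smaller, 10 of the 11 were still called. The folds were then 19.3 for Kif20a, 12.2 for Kif22, 11.8 for Kifc5b, 7.53 for Kif20b, 3.49 for Kif2c, 3.44 for Kif4, 3.22 for Kif11, 2.95 for Kif23, 2.44 for Kif18b and 1.78 for Kif18a, while Kif15 lost its call (1.14-fold, adjusted p = 0.393).

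Among the PVBL arrays most mitotic kinesins had the same order. PVBL 2 held the highest value for 9 of the 11 and PVBL 3 the lowest for 8, with median deviations from the group mean of 0.21 and -0.23 on the log2 scale. The exceptions were Kif23, highest on PVBL 3, Kif18b, highest on PVBL 1, and Kif15 and Kif20b, lowest on PVBL 1. The transport kinesins had another order, with PVBL 1 highest for 8 of 13 and PVBL 2 lowest for 7. The order of the mitotic kinesins was not theirs alone. The hepatocyte markers Alb, Ttr, Apoa1, Apoc3, Serpina1a, Fgb and Ahsg were also highest on PVBL 2 and lowest on PVBL 3. Hnf4a, Tat and Cps1 were highest on PVBL 1. The share of all genes with this order was not counted. The deviations of the mitotic kinesins were small beside their differences between groups.

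Because all measured mitotic kinesins were called higher, promoters of the class were searched for 2 elements known from genes of late cell cycle. The cell cycle genes homology region (CHR) was searched as TTTGAA or TTCGAA and the CCAAT box, which NF-Y binds, as CCAAT, both on either strand, in the 300 bases from 250 before to 50 after each annotated start (RefSeq, GRCm38.p6). A gene with several annotated starts counted when any of them matched. Promoters were held for 12 of the 13 mitotic kinesins, and 11 of the 12 (91.7%) had a CHR match, against 21.7% of 27025 genes with a promoter entry. A CHR match within 30 bases of the start was present in 9 of the 12, against 3.95% of all. This limit was not part of the plan, and the Kifc5b match lies right at it. Both elements stood in 8 of the 12 (66.7%), against 8.61% of all. The transport kinesins had a CHR match in 1 of 10 promoters, that of Kif1a, and the others in 3 of 11. Kif18a had neither element in this window. The near copies Kifc1 and Kifc5b count separately in these shares. Kif14 and Kifc1 also count, although they had no probe and their expression was not measured. A match is only a run of letters, and the arrays did not measure binding.

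The windows below show the arrangement in kinesins that rose and in Kifc1, the near copy of Kifc5b. Each is written 5′ to 3′ on the gene's strand, with the matches in capitals (a CHR match on the other strand reads TTCAAA and a CCAAT box ATTGG). In the stretches shown, Kif11 and Kif22 carry 1 reversed CCAAT box and then 1 CHR match before the start (Kif22 has another of each farther upstream). Kif18b has 2 CCAAT boxes and then the CHR, and Kif20b has 2 adjoining CHR matches.
Kif11, chr19:37376322-37376381, plus strand: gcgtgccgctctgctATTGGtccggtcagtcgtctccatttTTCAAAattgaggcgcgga
Kif22, chr7:127042421-127042480, minus strand: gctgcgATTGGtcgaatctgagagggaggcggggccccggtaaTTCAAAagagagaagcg
Kif18b, chr11:102925113-102925184, minus strand: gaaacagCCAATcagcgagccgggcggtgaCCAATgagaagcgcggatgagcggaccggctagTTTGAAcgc
Kif20b, chr19:34922328-34922377, plus strand: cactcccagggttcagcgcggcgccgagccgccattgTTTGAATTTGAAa
Kifc1, chr17:33890624-33890713, minus strand: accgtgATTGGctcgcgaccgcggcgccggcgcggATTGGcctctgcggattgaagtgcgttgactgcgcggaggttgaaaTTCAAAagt
Kifc5b, chr17:26917039-26917090, plus strand: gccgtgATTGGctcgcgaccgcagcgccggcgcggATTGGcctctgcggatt
The Kifc1 and Kifc5b promoters were identical at 239 of 272 bases (87.9%) when laid side by side with a shift of 28 bases. The same pair of reversed CCAAT boxes stands in both, and the Kifc5b window shown ends before its CHR match, which begins 30 bases into the transcribed part.

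**Figure D2:**
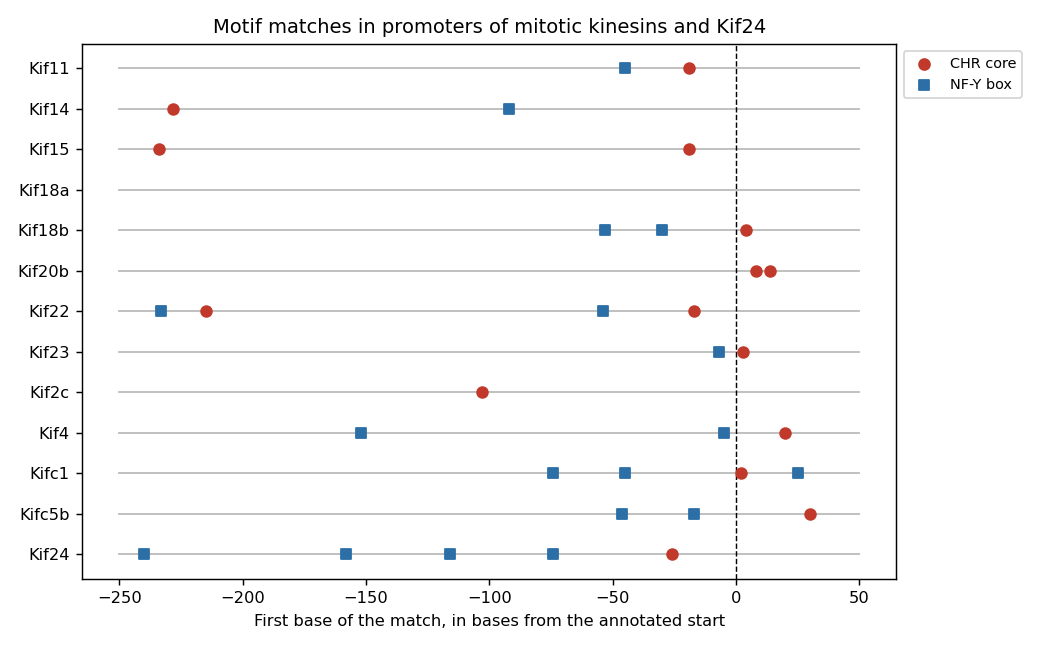
Positions of CHR cores (circles) and CCAAT boxes, labelled NF-Y box (squares), in bases from the annotated start (dashed line), for the 12 mitotic kinesins with a promoter entry and for Kif24. CHR circles gather near the start in 9 of the 12, and the line of Kif18a is empty.

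Kif24 was the only called gene among the cilium, centriole and other kinesins. It shortens centriolar microtubules and restrains the growth of primary cilia. Its signals were 54.3%, 32.1% and 18.9% against 14.0%, 13.6% and 9.22%, so the groups did not overlap but PVBL 3 lay close to the sham arrays. The log2 difference was 1.41 ± 0.37 (adjusted p = 0.0277). The call was lost without PVBL 1 (1.03), PVBL 2 (1.41) or any 1 sham array (1.22 to 1.52), without a filter on dim probes, and with normexp (1.42-fold, adjusted p = 0.055). Its promoter held 4 reversed CCAAT boxes and a CHR match that begins 26 bases before the start, of which 2 boxes and the CHR are shown. Both elements also stood in the promoters of Kif26b, which was not called and has a reversed CCAAT box at -73 and a CHR match at -9, and of Kif27, which was too dim to test.
Kif24, chr4:41464863-41464968, minus strand: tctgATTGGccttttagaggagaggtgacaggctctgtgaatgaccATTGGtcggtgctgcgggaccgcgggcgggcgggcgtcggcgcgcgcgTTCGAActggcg

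Of the transport kinesins, Kifc3 rose most. It is a minus-end-directed motor of epithelial cells, known at cell junctions and in apical transport. Its signals were 371%, 356% and 356% against 96.7%, 104% and 94.3%, tight in both groups. It was 3.68-fold higher (log2 difference 1.88 ± 0.11, adjusted p = 5.39e-05) and was called in all 18 alternative analyses. These include the deposited value table, which holds only rows in which the groups do not overlap, so its call adds no support. Averaging over probes left the value of Kifc3 unchanged, as it has 1 probe. The other motor of this type, Kifc2, known from dendrites, went the other way. It had 41.4%, 28.0% and 45.1% against 128%, 112% and 106.7% and was 3.09-fold lower (log2 difference -1.63 ± 0.20, adjusted p = 0.00168).

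Kif17, which carries receptors and ciliary cargo, had the largest fall in the family. Its brighter probe gave 80.2%, 88.9% and 80.3% in PVBL against 346%, 293% and 337% in sham. It was 3.91-fold lower (log2 difference -1.97 ± 0.12, adjusted p = 7.86e-05), and the call held in all 18 alternatives. As for Kifc3, the deposited value table is among these and adds no support. Averaging over probes left the value of Kif17 unchanged, since the filter dropped its dimmer probe. The other Kif17 probe, for the same transcript, was not above background on any array (1.08% to 1.84%), so the gene's fall rests on 1 probe.

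The heterotrimeric motor of Kif3a, Kif3b and Kifap3 drives transport within cilia and of some vesicles. Kif3a had 124%, 87.7% and 113% against 82.3%, 71.4% and 52.8%, a rise of 0.66 ± 0.21 on the log2 scale (adjusted p = 0.0481). The call lay at the edge of the threshold and was lost in 11 of 17 alternatives, among them those without PVBL 1 (0.55), without PVBL 3 (0.62) and without any 1 sham array (0.48 to 0.80). Its other probe read 53.9%, 38.1% and 50.4% against 31.5%, 36.0% and 33.4% (0.48 ± 0.16, adjusted p = 0.0569). Kifap3, the non-motor subunit, was called higher at 0.44, but the call was lost without any 1 array (0.34 to 0.51). Kif3b was not called (22.5%, 21.7% and 25.7% against 21.8%, 19.4% and 19.6%, a difference of 0.20 with a 95% interval of -0.10 to 0.50), nor was Kif3c (-0.50, interval -1.01 to 0.01). A dim second probe of Kif3b read 100.4% on PVBL 3 and 2.85% to 7.94% on the other 5 arrays and was not tested.

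Among the vesicle and mitochondrial motors Kif1b and Kif1c were called lower by their brightest probes. Kif1b, which carries mitochondria and synaptic vesicle precursors, had 1704%, 1283% and 1648% against 3067%, 2636% and 2702%, a 1.82-fold fall (log2 difference -0.87 ± 0.15, adjusted p = 0.00651). The call was lost with spike-in scaling (-0.44). That probe is listed for the transcript NM_207682. The other Kif1b probe, listed for the transcript NM_008441, moved the opposite way, at 96.0%, 58.7% and 77.8% against 44.6%, 44.7% and 44.3% (0.77 ± 0.19, adjusted p = 0.0201 among probes). The groups did not overlap for either probe. The difference between the 2 probes was itself tested and passed, at -1.64 ± 0.12 (95% interval -1.92 to -1.35, adjusted p = 0.0036 over 3941 probe pairs, of which 7.89% passed). That test was added after the probe values had been seen. When both probes were averaged, Kif1b was at -0.05 (adjusted p = 0.839).

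Kif1c, a vesicle motor, had 1250%, 928% and 1192% against 1676%, 1589% and 1650% with its brightest probe (-0.56 ± 0.15, adjusted p = 0.0266). Its call was lost without any 1 sham array (-0.58 to -0.54), with scaling on the array median (-0.42), on quantiles (-0.50) or on spike-in probes (-0.13), and without a filter on dim probes. Its 2 other probes gave -1.07 (adjusted p = 0.00595) and -0.22 (adjusted p = 0.248). Neither differed from the brightest probe past the threshold (adjusted p = 0.182 and 0.109).

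**Figure D3:**
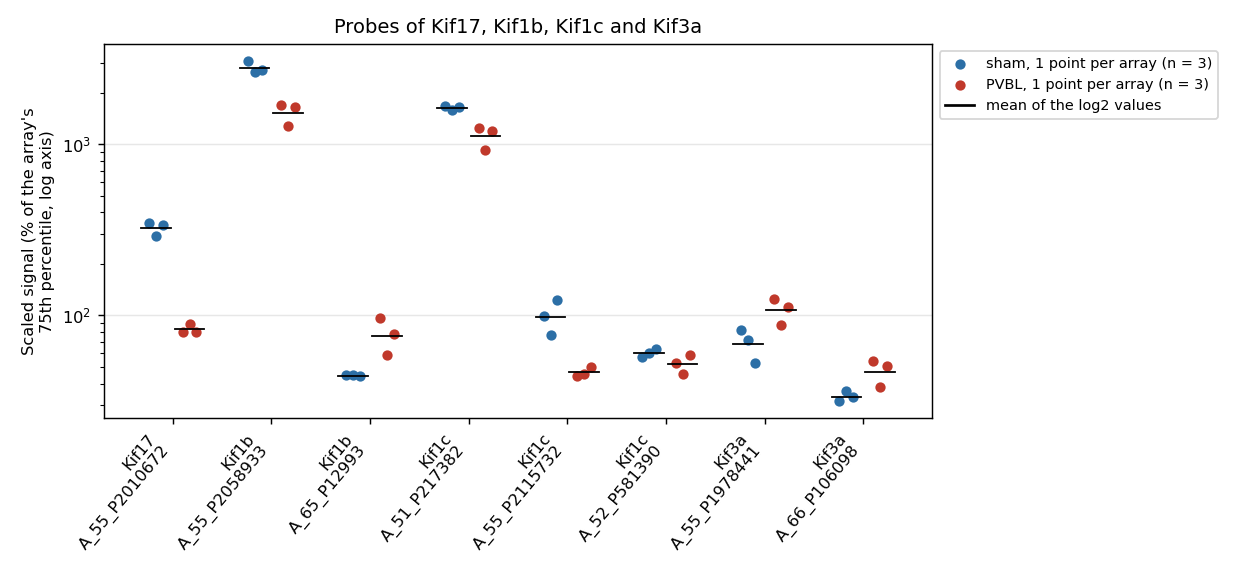
Scaled signal (percent of the array's 75th percentile, log axis) on each array for the tested probes of Kif17, Kif1b, Kif1c and Kif3a, with bars at the mean of the log2 values. The 2 Kif1b probes move in opposite directions, the brighter one lower and the dimmer one higher in PVBL.

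The conventional kinesin heavy chains were not called where they could be measured. Kif5b, the broadly expressed form, read 65.0%, 61.4% and 60.6% against 58.9%, 61.3% and 59.7%. The difference was 0.06 (95% interval -0.20 to 0.31, adjusted p = 0.713). Kif5a, a neuronal form, was dim and above background on 1 PVBL array and all 3 sham arrays (3.96%, 3.42% and 6.36% against 7.44%, 6.19% and 7.50%). It was not called (-0.67 ± 0.24, adjusted p = 0.0685) but passed without PVBL 3 (-0.93) and with array weights (-0.79). Kif5c and Kif1a, also known from neurons, were not above background on any array.

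The endosomal motors were not called. Kif13a, which moves cargo from the Golgi to endosomes and the surface, had 223%, 207% and 203% against 274%, 263% and 228% (-0.27, interval -0.56 to 0.03). Kif16b, of early endosomes, had 69.5%, 84.1% and 92.3% against 106%, 97.0% and 102% (-0.32, interval -0.65 to 0.01). The groups did not overlap for these 2 genes, as for 51.4% of all tested genes, and both differences were above 0 with spike-in scaling (0.16 and 0.11) and called lower with array weights (-0.26 and -0.50). Kif13b read 11.4%, 7.62% and 9.56% against 8.47%, 9.83% and 13.3% (-0.14, interval -0.65 to 0.38).

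**Figure D4:**
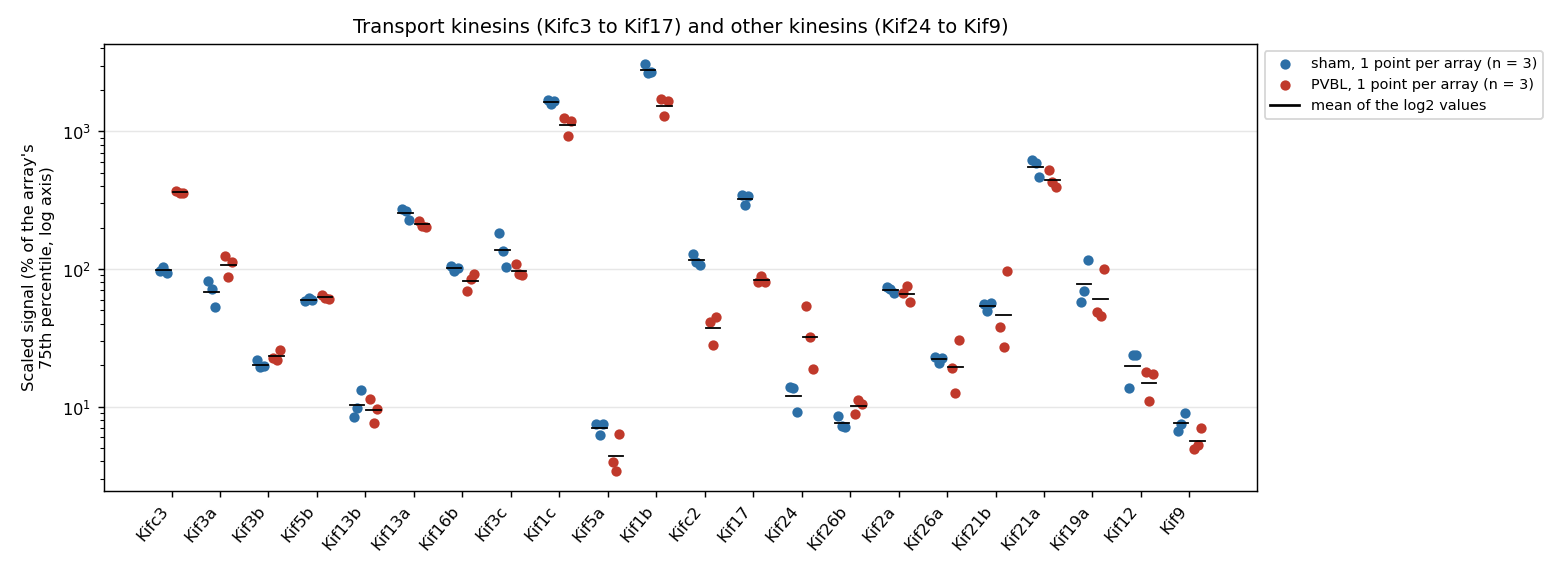
Scaled signal (percent of the array's 75th percentile, log axis) of the 22 tested transport and other kinesins, with 1 point per array and a bar at the mean of the log2 values. Kifc3 stands apart upward and Kif17 and Kifc2 downward, while the PVBL and sham points of Kif5b and Kif2a overlap.

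None of the remaining tested kinesins was called. Kif2a, a depolymerase of spindle poles and of axons, read 66.8%, 75.8% and 57.7% against 74.6%, 71.2% and 66.4% (-0.09, interval -0.42 to 0.24), while its relative Kif2c was called higher. Kif12, known from kidney tubules and bile ducts, read 17.8%, 10.9% and 17.3% against 13.6%, 23.9% and 23.7% (-0.40, interval -1.07 to 0.27). Kif21a and Kif21b, which restrain microtubule growth, were at -0.31 and -0.22, Kif21b with a wide spread in PVBL (38.0%, 27.0% and 96.5%). Kif26a and Kif26b, which lack motor activity, were at -0.19 and 0.40, and the ciliary motors Kif19a and Kif9 at -0.36 and -0.44. Kif21b and Kif9 were called lower without PVBL 3 (-0.75 and -0.60), Kif9 also with array weights (-0.52), and Kif26b was called higher with 3 other scalings (0.44 to 0.53) but was at -0.17 with normexp.

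The 6 other genes with a probe were too dim to test. Kif2b, Kif7, Kif5c and Kif1a were above background on no array. Kif27, a gene of motile cilia, was above background on 2 PVBL arrays (7.02%, 15.2% and 1.15%, against 1.29% to 2.53% in sham). Kif6, also of motile cilia, was above background on 2 sham arrays. Kif14, Kifc1 and Kif28 had no probe by accession.

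**Figure D5:**
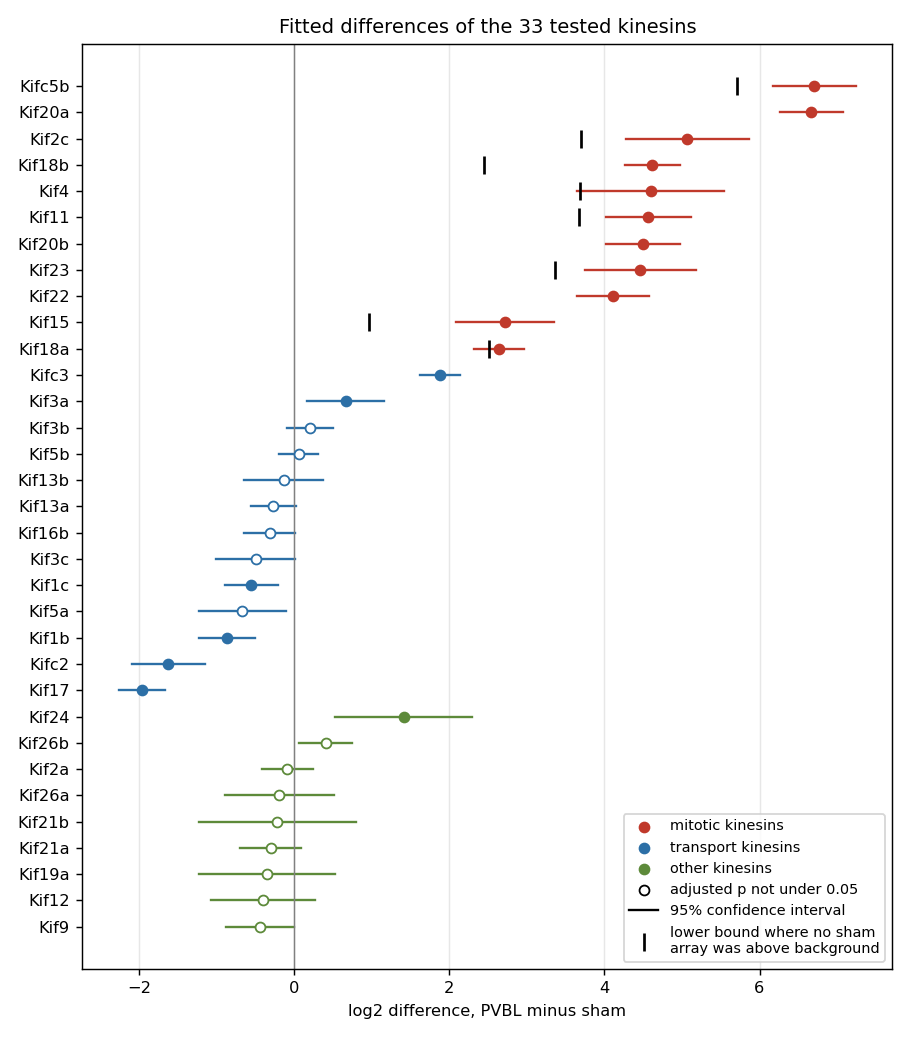
Fitted log2 differences (PVBL minus sham) of the 33 tested kinesins with 95% confidence intervals, coloured by class, open where the adjusted p was not under 0.05, and with a tick at the lower bound where no sham array was above background. The 11 mitotic kinesins lie between 2.64 and 6.71, and the 22 others between -1.97 and 1.88.

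Most tested genes for partners of the mitotic kinesins were also called higher. Of 18 tested, 14 were called higher and none lower (15.1% of all tested genes were higher), with a median of 4.99, or 4.93 with 3 genes at their bound. Cenpe, a kinetochore kinesin that lacks the Kif name, had a log2 difference of 6.18 (adjusted p = 2.16e-06, normexp 16.0-fold). Prc1, the partner of Kif4 at the midzone, was at 6.67 (normexp 27.9-fold), and Birc5 (survivin), a member of the complex that Kif20a carries, at 6.38. Ska1, of the kinetochore, and Tpx2, which targets Kif11 and Kif15 to the spindle, were higher by at least 4.91 and 5.60 on the log2 scale. With normexp these 2 were 7.14-fold and 10.8-fold higher, and without any 1 PVBL array another Tpx2 probe stood for the gene and was not called (0.58 to 1.31). Numa1, Bod1, Mapre3 and Kpnb1 were not called, and Cit and Aurkb were too dim to test.

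Of 17 tested genes for subunits and adaptors of the transport kinesins, 4 were called higher and 1 lower, with a median of 0.04, a share near the 32.9% called over all tested genes. Klc3, a kinesin light chain, rose by 1.54 on the log2 scale (normexp 1.70-fold). Klc1, another light chain, rose by 0.47, Fez2, an adaptor, by 0.58, and Trak1, which links kinesin to mitochondria, fell by 0.55. Klc1 was called in 11 of 18 alternatives, Fez2 in 16 and Trak1 in 6. Each count includes the call in the deposited value table, which holds only rows that separate the groups. For the opposing motor, cytoplasmic dynein, and its cofactor dynactin, 5 of 30 tested genes were called higher and 4 lower, with a median of 0.06, which is also near that 32.9%. The heavy chain gene Dync1h1 was at 0.01 (adjusted p = 0.951). Spdl1, which recruits dynein to kinetochores, was at least 3.80-fold higher (1.45-fold with normexp). Dynll1 and Dynlt1c, light chains, were at 1.57 (0.43 with normexp, where the call was lost) and 1.02, and Dynlrb2, a light chain of ciliary dynein, was at least 2.39-fold lower (1.58-fold with normexp).

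Summed levels of several lists of cell type markers also differed between the groups, and their part in the kinesin results was not tested. The counts below stand against 15.1% higher and 17.8% lower over all tested genes, and several are at or below those shares. A sum mostly follows its brightest genes. On every array Spp1 was the largest part of the biliary sum, Col3a1 of the stellate and Snap25 of the neuron and Schwann cell sum. Spp1 had 1347%, 578% and 1971% in PVBL against 128%, 210% and 342% in sham. Summed scaled signals of 10 biliary markers were 827% to 2346% in PVBL and 289% to 564% in sham, with 4 of 7 tested called higher and 1 lower. Those of 10 stellate cell markers were 2194% to 5042% and 1334% to 1715% (4 of 10 higher, 1 lower). Endothelial markers had 5003% to 7612% against 11262% to 11962% (3 of 10 lower, none higher), lymphocyte markers 954% to 1098% against 1252% to 1392% (2 of 9 lower, none higher) and hepatocyte markers 561280% to 707016% against 778043% to 886020% (2 of 10 lower, none higher). Kupffer cell and macrophage markers overlapped (11522% to 28936% against 15026% to 16879%; 1 of 8 higher, none lower), as did neuron and Schwann cell markers (385% to 641% against 439% to 589%; 1 of 6 lower, none higher), of which Nefl and Nefm were below background throughout. Motile cilium markers had 343% to 517% against 700% to 844% (1 of 3 higher, 1 lower), with Dnah9, Tekt1, Ccdc39 and Spag6 below background on every array. Most of that sum came from 1 probe, for Dnaic1 (432%, 453% and 268% against 716%, 642% and 757%), while Rsph1 was the marker called higher.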

How the data were processed

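The authors' deposited scanner files hold intensity values per spot, per the file headers from Agilent Feature Extraction 10.7.3.1 (array design 028005, build mm9), already corrected for background. The submitters' processing notes name version 9.1. The deposited value table holds log2 values, with no normalization given in the sources used here. It matched the scanner values scaled as below and centred per probe (r of at least 0.9997 per array). The PVBL columns had medians of -0.18, -0.15 and -0.22 and the sham columns of 0.17, 0.15 and 0.18. In all its 7850 rows the groups did not overlap, so it served only as an alternative.

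Control spots (3671) and outlier spots (115 to 201 on an array) were dropped. The processed signal was put on the log2 scale, repeated spots were averaged, and the 75th percentile of the array was taken off. Probes were tested if well above background, in at least 50% of their spots, on all arrays of 1 group. Symbols came from RefSeq accessions (GRCm38.p6 table), which named 26413 of 55681 probes, and a gene was read from its brightest probe. The fit used limma 3.58.1 in R 4.3.3 (two-sided, Benjamini-Hochberg), and the fit was tested on simulated data. The number of arrays limits the precision. Every member of the family is named by rule. Partners were named as up to 4 called genes per list with the largest difference, plus Cenpe, Kifap3, Klc1 and Dync1h1. Members and lists were chosen with earlier results of these data known. Normexp used the spot's median signal, since these files carry no mean. Alternatives changed background, scaling, filter, probe rule, test, values, replicate block and arrays. The main fit did not pair samples by replicate number. Correlations of deviations from the group means were 0.166, -0.063 and 0.185 for the same number and -0.247 to 0.176 for different numbers. With so few arrays these cannot decide whether the numbers mark pairs.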

Additional observations from a re-analysis of the deposited data

How the results depend on the processing

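The 11 mitotic kinesins kept their direction in every alternative that tested them, and all 11 were called in all but 2 settings. Among those settings, the authors' table holds only rows that separate the groups, so its calls add no support. Averaging over probes changed the value of Kif2c alone among the 11. Normexp called 10 of the 11 (median 1.78), and a filter for probes above background on all arrays left 2 to test, both called. Spike-in scaling gave a mitotic median of 4.998. Transport kinesins called numbered 3 with spike-in scaling and 10 with array weights, and their median was -0.19 with the array median, 0.11 with spike-in scaling, -0.44 with array weights and -0.41 to -0.29 without 1 array. In the authors' table, whose rows all separate the groups, 5 transport kinesins were held (median -0.87, all 5 called). Other kinesins called numbered 0 with normexp and without a filter, 2 with the array median, quantiles, detected probes and array weights, and 0 to 4 without 1 array. The authors' table held none of them (0 of 0), so it gives no test there. Partners called numbered 18 with spike-in scaling and 18 to 25 without 1 array. All genes called numbered 1798 with spike-in scaling (1612 higher, 186 lower), 7209 with array weights and 2391 to 4784 without 1 array, with a median of 0.031, -0.045, 0.33, -0.067 and -0.31 for the array median, quantiles, spike-in scaling, detected probes and the authors' table.

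Of 564 single-gene values, 505 kept direction and side of the threshold, 28 lost a call, 12 gained one and 19 changed sign, none of a called gene. Spike-in scaling raised all genes by the same amount, which by itself turned Kif12 (0.0297), Kif13a (0.16), Kif13b (0.29), Kif16b (0.11), Kif19a (0.073), Kif21a (0.12), Kif21b (0.21), Kif26a (0.24) and Kif2a (0.34). Normexp turned Kif26b (-0.17), Kif3b (-0.068) and Kif5b (-0.0001), array weights Kif13b (0.19) and the array median Kif2a (0.041). Without 1 array the ranges were -0.28 to 0.0425 for Kif13b, -0.75 to 0.17 for Kif21b, -0.52 to 0.12 for Kif26a and -0.19 to 0.0098 for Kif2a. Beyond spike-in scaling, the cause was not tested. With the replicate block the mitotic count stayed 11, the median 4.57 and all genes called 3803, the call of Kif3a was lost (adjusted p = 0.0556) and Kif5a gained one (adjusted p = 0.0485). Signal over background limits the 8 mitotic folds given as bounds.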
